A study of Mus musculus with 14 samples.

Results

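The comparison described here sets the aorta-gonad-mesonephros region (AGM) of mouse embryos labelled E11.5 against the AGM of embryos labelled E10.5. It rests on 4 of the 14 libraries of the series, 2 of each age, taken by their titles. All 4 came from wild-type C57BL/6 embryos, as did 2 further AGM libraries labelled E9.5 (the caudal part including para-aortic splanchnopleura). Those 2 are outside the comparison, but the fit used them for the choice of genes, the scaling, the effect of sequencing round and the spread. The tissue was frozen after dissection, and polyA RNA was made into libraries in 2 sequencing rounds, each holding 1 library of each age. Whether libraries of an age came from separate embryos, and how many embryos were pooled, is not in the labels, and p-values therefore measure the spread between these samples alone. The second-round AGM data carry sample numbers without ages, and each was given the age that the first-round labels tie to its number.

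The AGM is the strip of tissue around the dorsal aorta in which the first transplantable blood stem cells of the mouse arise from the aortic wall. The mesonephric tubules and ducts lie beside the aorta, the gonad and adrenal forerunners form from the epithelium over them, sympathetic neurons gather next to the vessel, and the neural tube and somites lie behind it. At the tail end of the embryo the tailbud adds new axis tissue from a pool of neuromesodermal progenitors kept by Wnt and FGF signals and by Cdx factors, and newly made mesoderm is cut into somites by a segmentation clock.

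Read depth was similar in the 4 libraries. Total counts were 24820391 and 21527400 in the libraries labelled E11.5 and 24513201 and 25818165 in those labelled E10.5, with the first round given first here and below. Levels are given as CPM (read counts scaled to the same library size) after TMM normalisation. Replicates were close, with Pearson's r = 0.993 between the rounds of each of these ages over genes on a log2 scale.

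Before any change is given, the libraries were checked against marker genes. The 2 libraries labelled E11.5 went against their label, and so did those labelled E9.5. In the order E9.5, E10.5, E11.5, the tailbud factor Cdx4 was at 0 and 0, 0 and 0.0381, and 55.4 and 30.5 CPM. The gonad and adrenal factor Nr5a1 was at 16.2 and 12.8, 9.71 and 7.21, and 0.086 and 0 CPM in the same order. Genes that label axis extension were therefore present in the libraries labelled as the oldest and nearly absent from those labelled as the youngest, and the defining gene of the gonad ridge ran the other way. Lin28a, an RNA-binding protein of early embryonic cells whose level is known to drop as the embryo matures, was at 21.9 and 39.1, 121 and 127, and 609 and 518 CPM in the order E9.5, E10.5, E11.5. The macrophage genes of the list given further on summed to 179 and 164, 76.6 and 69.3, and 8 and 9.42 CPM in that order. Which embryos these libraries came from was not tested and cannot be read from the counts. For this reason ages below are labels, and a direction is stated only between libraries labelled E11.5 and libraries labelled E10.5, not between earlier and later embryos.

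**Figure D1:**
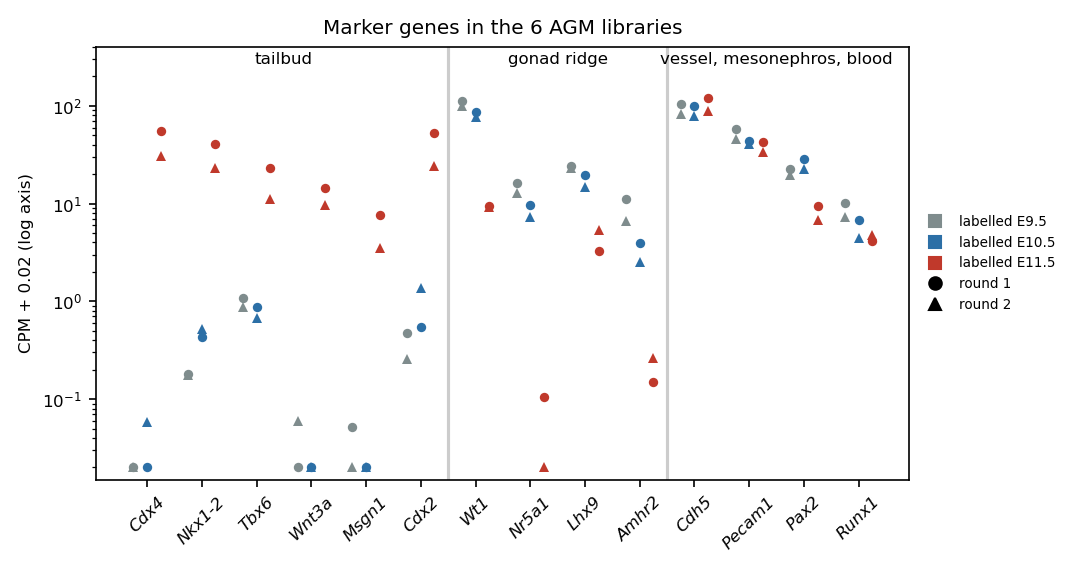
CPM (plus 0.02, log axis) of 14 marker genes in the 6 AGM libraries, 1 point per library, coloured by labelled age and shaped by sequencing round. The 6 tailbud genes are highest in both libraries labelled E11.5, the 4 gonad ridge genes are lowest there, and Cdh5 and Pecam1 are at similar levels throughout.

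The other markers of the AGM were checked in the same way. The aortic and blood genes Cdh5, Pecam1, Dll4 and Runx1 and the mesonephric genes Pax2, Pax8 and Lhx1 were detected in all 4 libraries compared. Gfi1, a factor of emerging blood cells, was at 0.774 and 0.437 CPM in the libraries labelled E11.5 and at 1.06 and 0.953 CPM in those labelled E10.5. Of the defining gonad genes, Nr5a1 was at or near 0 in the libraries labelled E11.5, whereas Gata4 was at 21.4 and 13 CPM there. Alb, the fetal liver gene, stayed at 0.153 CPM or less in all 4 libraries.

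The change was spread over much of the transcriptome. Of 17613 genes tested with edgeR's quasi-likelihood test, with the round as a block, 8491 passed a Benjamini-Hochberg adjusted p under 0.05, or 48.2% of them. Of these, 4261 were higher in the libraries labelled E11.5 (24.2% of genes tested) and 4230 were lower (24%). The median log2 change of all tested genes was 0.00485, so list medians below can be read against 0. Likewise, list counts below can be read against 24.2% higher and 24% lower, and a list near those shares says nothing particular about its members. Many of the 8491 changes were small. When the test asked for a change beyond 2-fold (glmTreat), 378 genes were higher and 784 were lower. With the round left out of the model, 2075 genes were higher and 2716 were lower. When the skin libraries of the series shared the fit (14 libraries), the estimated spread was wider and 21 genes were higher and 29 lower, Cdx4, Msx3, Pax6, Wt1, Dbh and Cxcl12 among them. Leaving out 1 library at a time gave between 2561 and 3991 higher and between 2765 and 3793 lower, and the fewest came without the library of round 2 labelled E10.5, called E10.5 round 2 here (the other 3 are named likewise).

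For large changes the 2 rounds gave nearly the same picture although they share no library. Over all tested genes, Pearson's r between the log2 ratios of the rounds was 0.882. Some lists held many genes of opposite sign in the rounds, as 13 of 16 red cell genes. Of 1602 genes that differed more than 2-fold between the ages within round 1, 1593 had the same sign within round 2 (99.4%) and 1252 also passed 2-fold there. These libraries are bulk tissue, so fewer cells of a type and less RNA per cell cannot be told apart.

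**Figure D2:**
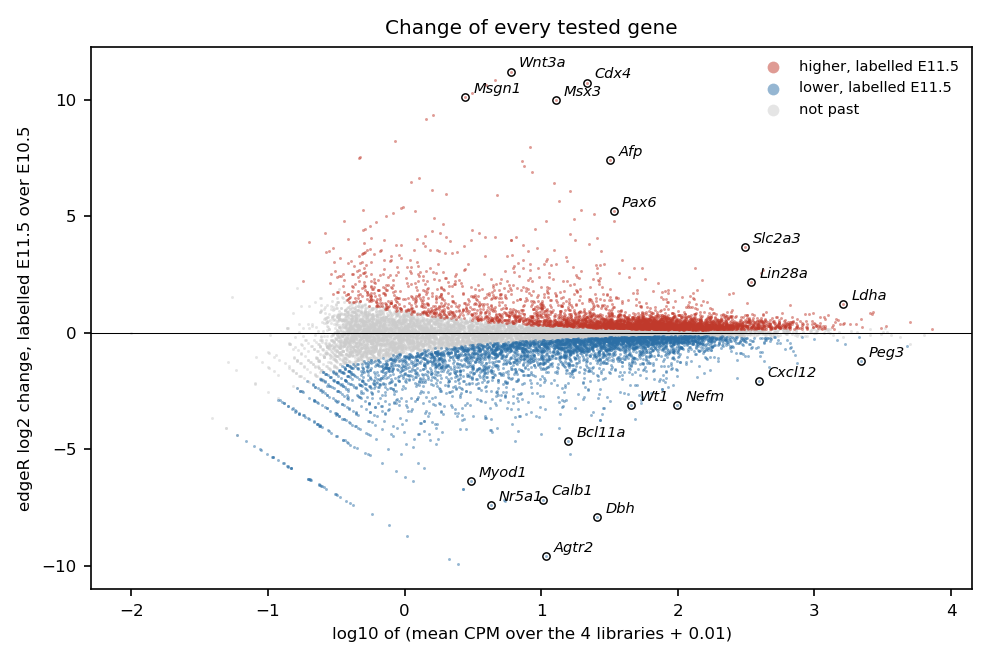
Fitted log2 change (labelled E11.5 over labelled E10.5) of each of the 17613 tested genes against the log10 of its mean CPM plus 0.01 over the 4 libraries, coloured by call. Tailbud and neural tube genes stand at the top and gonad, sympathetic and macrophage genes at the bottom; fitted values of genes with almost no counts in an age are not bounds.

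The clearest rise was in genes of the tailbud and of presomitic mesoderm. Of 12 listed genes, all tested, 11 were higher in the libraries labelled E11.5 and 1 was lower, with a median log2 change of 4.29. Cdx4, a caudal homeobox factor of the axis progenitors, had 1916 counts in the libraries labelled E11.5 against 1 count in those labelled E10.5, a ratio of 2220 (95% counting interval 397 to 87600). Wnt3a, the ligand that keeps the progenitor pool, was at 14.3 and 9.56 CPM in libraries labelled E11.5, against 0 and 0 CPM in libraries labelled E10.5, at least 204-fold higher when 3 counts over the group are taken as the floor. Msgn1, the presomitic bHLH factor, was at 7.61 and 3.5 CPM, against 0 and 0 CPM, at least 96-fold higher. Intervals and floors cover counting error only. Both libraries labelled E11.5 held these transcripts, and the libraries labelled E10.5 held practically none.

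The promoters of these 3 genes are shown because the genes have 0 or 1 counts in the libraries labelled E10.5. Each is 250 bases before to 50 bases after the annotated start, from RefSeq, GRCm38.p6, written 5′ to 3′ on the gene's own strand. Capitals mark a TCF/LEF motif (CTTTGAT, either strand), the element through which Wnt signals act.
Wnt3a, chr11:59290702-59291001, minus strand: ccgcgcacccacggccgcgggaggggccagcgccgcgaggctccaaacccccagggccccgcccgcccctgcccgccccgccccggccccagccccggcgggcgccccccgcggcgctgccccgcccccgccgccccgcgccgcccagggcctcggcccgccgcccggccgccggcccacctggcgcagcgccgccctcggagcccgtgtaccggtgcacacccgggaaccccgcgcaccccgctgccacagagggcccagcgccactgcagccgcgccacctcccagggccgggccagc
Cdx4, chrX:103321148-103321447, plus strand: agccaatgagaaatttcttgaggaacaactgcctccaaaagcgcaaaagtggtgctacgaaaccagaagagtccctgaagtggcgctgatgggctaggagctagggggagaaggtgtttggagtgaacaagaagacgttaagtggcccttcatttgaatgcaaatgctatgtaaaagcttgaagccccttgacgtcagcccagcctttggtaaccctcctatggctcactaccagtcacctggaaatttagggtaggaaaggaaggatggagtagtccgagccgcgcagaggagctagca
Msgn1, chr12:11208899-11209198, minus strand: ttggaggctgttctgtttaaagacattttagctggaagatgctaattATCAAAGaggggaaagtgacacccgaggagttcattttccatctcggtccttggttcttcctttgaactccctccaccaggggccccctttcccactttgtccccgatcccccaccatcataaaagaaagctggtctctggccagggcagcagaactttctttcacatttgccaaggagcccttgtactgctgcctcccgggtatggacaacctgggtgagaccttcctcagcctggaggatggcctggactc
The Msgn1 window holds 1 match, at position -203 from the start, and the other windows hold none. Among 32851 RefSeq promoters of the same length, 3.73% hold this motif. A T-box site (TCACACC, in 3.98% of promoters) and a CDX motif (TTTATNG, in 10.9%) were searched on both strands and are in none of the 3 windows. The 3 motifs do not overlap one another, and a match is a description of the letters only.

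The rest of the tailbud list moved the same way, with 1 exception. Tbx6, which commits progenitors to mesoderm, was at 23.3 and 11 CPM in libraries labelled E11.5, against 0.856 and 0.648 CPM in libraries labelled E10.5 (log2 change 4.46 ± 0.22 SE, edgeR adjusted p = 8.3e-09). Nkx1-2, a gene of the preneural tube and progenitor zone, was at 40.7 and 23.4 CPM, against 0.408 and 0.496 CPM. T, the T-box factor brachyury, which the notochord also makes, was at 46 and 21.1 CPM, against 11.7 and 12.2 CPM. In each of these genes the first-round library labelled E11.5 was the higher of the pair, and both lay above both libraries labelled E10.5. Gdf11, a ligand that ends trunk growth, was lower, at 56.9 and 47 CPM against 70.3 and 69.1 CPM.

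Genes of the segmentation clock and the new somite border followed. Of 12 tested genes, 7 were higher and 3 lower, and the median log2 change was 2.02. Hes7, the oscillating repressor of the mouse clock, was at 9.63 and 5.15 CPM in libraries labelled E11.5, against 0.571 and 0.267 CPM in libraries labelled E10.5. Its partners Lfng (log2 change 2.08) and Dll1 (2.31) were higher as well, and the border genes Mesp2, Ripply1 and Ripply2 were higher at levels of 4.03 CPM or less. The 3 that were lower were Uncx, Meox2 and Epha4, with log2 changes of -0.82, -1.02 and -0.52. Wnt ligands as a group did not share this direction, with 7 of 20 genes higher, 6 lower and a median log2 change of -0.01.

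Progenitor genes of the neural tube were also much higher in the libraries labelled E11.5. Of 13 tested, 11 were higher and none was lower, with a median log2 change of 3.19. Sox1, a factor of the neural plate and tube, was at 51.2 and 43.4 CPM in libraries labelled E11.5, against 1.35 and 1.41 CPM in libraries labelled E10.5 (log2 change 5.09 ± 0.14 SE, edgeR adjusted p = 6.9e-11). Pax6, a dorsoventral patterning factor, was at 61.8 and 70.3 CPM, against 1.3 and 2.25 CPM. The dorsal genes showed the widest gaps. Msx3, a dorsal homeobox gene, had 1110 counts against 1 (ratio 1280, interval 230 to 50800), and the dorsal midline ligand Wnt1 was at 7.05 and 8.79 CPM against 0 and 0 CPM, at least 133-fold higher. Prdm13, a dorsal patterning factor, was at least 154-fold higher and Hes3, a repressor that maintains neural progenitors, was 283-fold higher (interval 96.5 to 1380). DESeq2 gave Wnt1 and Prdm13 adjusted p-values of 0.088 and 0.081. Cer1, a secreted Nodal and BMP antagonist known from anterior endoderm and newly formed somites, was at least 104-fold higher. In the libraries labelled E10.5 each of the genes named here was at 2.25 CPM or less, while both libraries labelled E11.5 held them at similar levels.

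Neuron genes took the other direction. Of 21 tested, 16 were lower and 2 were higher in the libraries labelled E11.5, with a median log2 change of -1.14. Nefm, a neurofilament subunit of axons, was at 18.6 and 22.3 CPM in libraries labelled E11.5, against 180 and 173 CPM in libraries labelled E10.5 (log2 change -3.11 ± 0.08 SE, edgeR adjusted p = 5e-11). Doublecortin (Dcx), which stabilises microtubules in migrating neurons, was at 6.19 and 8.64 CPM, against 38.9 and 51.8 CPM. The 2 higher members were Neurog2, a factor that starts neurogenesis, at 21.5 and 21.7 CPM against 6.69 and 8.31 CPM, and Pou4f1, a sensory neuron factor, at 4.86 and 4.32 CPM against 1.18 and 1.91 CPM. Calb1, a calcium-binding protein of neurons and of renal tubules, was among the largest falls of all genes, at 0.043 and 0.243 CPM against 21.8 and 18.9 CPM.

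The genes of early embryonic timing were mostly higher in the libraries labelled E11.5. Of 13 tested, 11 were higher and 1 lower, with a median log2 change of 0.80. Lin28a had a log2 change of 2.19 ± 0.16 (SE) and Lin28b, its paralogue, 1.05 ± 0.10. Nr6a1, a nuclear receptor of early trunk formation, was at 239 and 228 CPM in libraries labelled E11.5, against 32.2 and 34.7 CPM in libraries labelled E10.5 (log2 change 2.80 ± 0.07, edgeR adjusted p = 5e-11). Trim71, a let-7 target, and Sall4, a factor of progenitor cells, were higher by 1.25 and 1.52 on the log2 scale. A member that did not pass had the lowest log2 change of the list, -0.83. Hmga2 was the 1 called lower, at 901 and 896 CPM against 1119 and 1074 CPM. Its call was lost without E10.5 round 1 (edgeR adjusted p = 0.22), without the second-round one labelled E11.5 (0.066) and without the round term (0.088).

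Regulators that come on late in many fetal tissues showed the opposite. Of 8 tested, 6 were lower, with a median log2 change of -1.27. Nfib, a nuclear factor I gene, was at 3.83 and 3.45 CPM in libraries labelled E11.5, against 44.8 and 40.4 CPM in libraries labelled E10.5 (log2 change -3.55 ± 0.09). Nfia, of the same family, was at 0.946 and 1.21 CPM, against 13 and 12.2 CPM. The zinc finger gene Bcl11b was at 0.774 and 0.728 CPM, against 12.2 and 10.8 CPM. Arid3a and Arid3b were the 2 higher members. No library labelled E11.5 reached the level of either library labelled E10.5 in the 6 lower genes.

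Of 14 tested genes of a list that joins the hypoxia response with glycolysis, 10 were higher in the libraries labelled E11.5 and 2 were lower (1 without E10.5 round 1, E11.5 round 1 or the round term), with a median log2 change of 0.73. Slc2a3, the high-affinity glucose transporter GLUT3, was at 635 and 514 CPM in libraries labelled E11.5, against 45.4 and 43.2 CPM in libraries labelled E10.5 (log2 change 3.69 ± 0.08 SE, edgeR adjusted p = 2.4e-11). Slc2a1, the transporter GLUT1, was at 772 and 614 CPM, against 123 and 110 CPM. Ldha and Pkm, enzymes at the end of the pathway, were among the 5 genes with the largest gain in CPM, at 2367 and 2162 against 985 and 951 CPM for Ldha, and at 3661 and 3046 against 2001 and 1783 CPM for Pkm. Of the same list, Vegfa, the vascular growth factor, was lower at 71.3 and 70.2 against 82.5 and 87.1 CPM, and Car9, a carbonic anhydrase, was lower too. Adm, the vasodilator peptide, had 1.03 and 0.583 against 1.14 and 0.801 CPM and did not pass the test. The calls of the lower genes were weak: edgeR's adjusted p for Car9 was 0.073 without E10.5 round 1 and 0.075 without the first-round one labelled E11.5, and for Vegfa it was 0.058 without the round term.

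Growth genes moved by smaller steps. Of 20 cell cycle and replication genes tested, 17 were higher and none lower, with a median log2 change of 0.39. Without the round term 11 of the 20 were higher. Ccnd1, the G1 cyclin, had the largest change in that list, 0.70 ± 0.06 (SE), and the replication helicase subunit Mcm3 had 0.56 ± 0.07. Mki67, the antigen Ki-67, was at 687 and 767 CPM in libraries labelled E11.5, against 690 and 767 CPM in libraries labelled E10.5. The other genes with the largest gain in CPM were the nucleolar proteins Ncl (3358 and 3618 against 1766 and 1950 CPM) and Npm1, and the chaperone Hsp90ab1. Of 10 chaperone genes, 6 were higher and 1 lower, and the stress-induced pair Hspa1a and Hspa1b did not pass. Hspa1a passed as lower without E10.5 round 2 (edgeR adjusted p = 0.024), without E11.5 round 2 (0.019) and without a low-count filter (0.0135), so that 2 chaperones were lower. Of 9 cell cycle inhibitors tested, 2 were higher and 3 lower (22.2% and 33.3%), with a median log2 change of -0.17. The imprinted gene Cdkn1c was among the lower, at 108 and 112 CPM against 423 and 434 CPM (log2 change -1.96 ± 0.06).

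**Figure D3:**
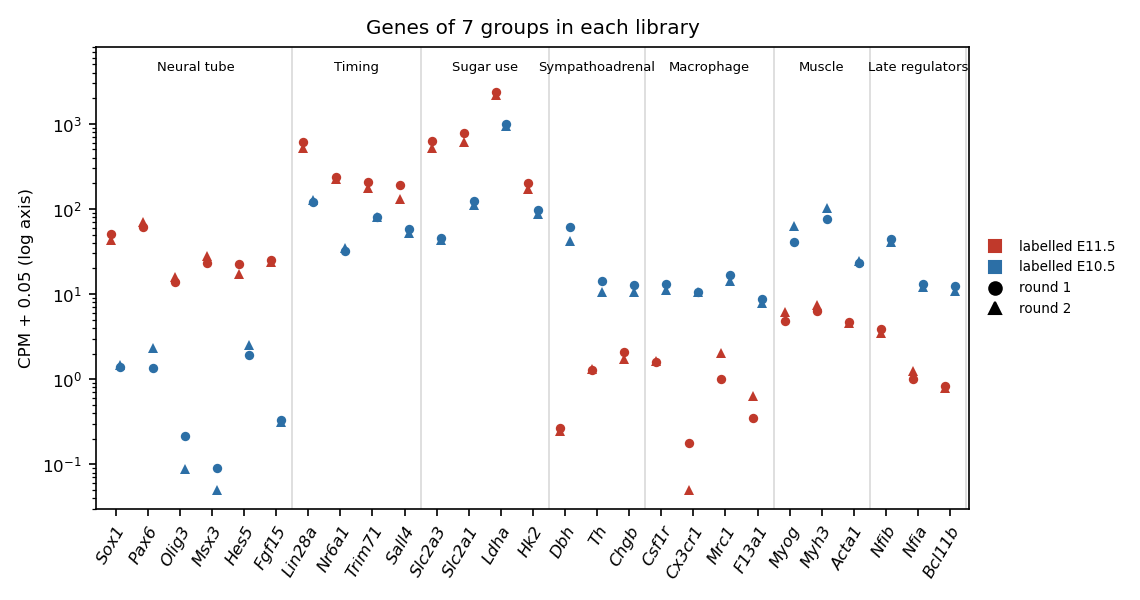
CPM (plus 0.05, log axis) of genes of 7 groups in each library, with the libraries labelled E11.5 in red left of those labelled E10.5 in blue and the round as the symbol. Neural tube, timing and sugar use genes are higher in both libraries labelled E11.5 and the other 4 groups are lower there, with the 2 libraries of an age close together in nearly every gene.

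The gonad ridge and its neighbours were lower in the libraries labelled E11.5. Of 14 tested genes of the coelomic epithelium and gonad, 10 were lower and 1 was higher (2 without either library labelled E11.5), with a median log2 change of -0.73. Wt1, a zinc finger factor of the coelomic lining, the gonad and the nephric mesoderm, was at 9.46 and 9.27 CPM in libraries labelled E11.5, against 86.4 and 76.8 CPM in libraries labelled E10.5 (log2 change -3.12 ± 0.07 SE, edgeR adjusted p = 5e-11). Nr5a1 (SF-1, on chromosome 2) had 2 counts against 427, 185-fold lower with an interval of 50.8 to 1530. Amhr2, the receptor for anti-Müllerian hormone, was at 0.129 and 0.243 CPM, against 3.92 and 2.48 CPM. The higher member was Krt19, a keratin that other epithelia also make. Nr5a1 and Amhr2 were near 0 in both libraries labelled E11.5, while Wt1 and the gonad and limb factor Lhx9 were lower but still detected.

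Of 8 steroid-making genes tested, 4 were lower and 1 was higher in the libraries labelled E11.5, and the median log2 change was -0.92. The higher call was lost without the round term, without either library labelled E10.5 and without E11.5 round 1. Hsd3b6, a steroid dehydrogenase, was at 2.75 and 4.08 CPM in libraries labelled E11.5, against 23.7 and 22.5 CPM in libraries labelled E10.5, and Mc2r, the receptor for ACTH, was at 0.43 and 0.437 against 4.24 and 4.2 CPM. Sry, the testis-determining gene, had no count in any of the 4 libraries, and Cyp17a1, the androgen-making enzyme, stayed at 0.215 CPM or less. Of 9 sex determination genes tested, 3 were lower and 1 was higher, and that higher call was lost under DESeq2 and under the same 4 changes. Sox9, which cartilage and many other tissues use, was among the lower ones, at 35.3 and 37.1 against 99.2 and 71.8 CPM.

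Mesonephric and intermediate mesoderm genes were lower in part, whereas a separate list of nephron segment and glomerular genes was mostly higher. Of the 8 tested in that list, of 12, 5 were higher and 2 lower, with a median log2 change of 1.04. Log2 changes in it ran from -1.29 to 3.97, and nephron differentiation itself was not tested. Its summed level was 623 and 646 CPM in libraries labelled E11.5, against 305 and 303 CPM in libraries labelled E10.5. A few members can carry such a sum. The summed level of the mesonephric list was 510 and 443 CPM, against 510.5 and 461.5 CPM. Of 19 mesonephric and intermediate mesoderm genes tested, 12 were lower and 3 were higher, with a median log2 change of -0.84. Pax2, a master gene of nephric tissue, was at 9.37 and 6.8 CPM in libraries labelled E11.5, against 28.8 and 22.4 CPM in libraries labelled E10.5 (log2 change -1.66 ± 0.11 SE). Cdh16, the kidney cadherin of differentiated duct epithelium, was at 0 and 0 CPM, against 5.79 and 4 CPM, at least 71.2-fold lower. Wnt9b, the duct's signal to mesenchyme, and Emx2, a factor of urogenital epithelium, were lower, with log2 changes of -2.56 and -2.31. Lhx1, which marks the early nephric cord, was at 13.3 and 11.4 against 11.7 and 10.2 CPM and did not pass. Sall1 and Cited1, which tissue outside the kidney also uses, were higher, at 246 and 187 against 60.8 and 60.1 CPM for Sall1 and 22.6 and 18.1 against 4.2 and 3.89 CPM for Cited1. Agtr2, the type 2 angiotensin receptor of fetal mesenchyme, had 1 count in the libraries labelled E11.5 and 1089 in those labelled E10.5, 941-fold lower (interval 169 to 37200).

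Genes of sympathetic and adrenal medullary cells were lower. Of 16 tested, 11 were lower and 1 was higher, with a median log2 change of -1.37. Dbh, the enzyme that makes noradrenaline, was at 0.215 and 0.194 CPM in libraries labelled E11.5, against 61 and 41.5 CPM in libraries labelled E10.5 (log2 change -7.93 ± 0.19 SE, edgeR adjusted p = 5e-11). Th, the first enzyme of that pathway, was at 1.25 and 1.26 CPM, against 14 and 10.49 CPM. In both enzymes the libraries labelled E11.5 lay below both labelled E10.5. Hand1 was the higher member, at 45.1 and 41.7 against 6.97 and 11.2 CPM, a gene also made in lateral mesoderm.

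The other neural crest derivatives showed the same direction. Of 9 enteric neuron genes, 7 were lower and 1 was higher (2 without E11.5 round 1), and Tlx2, a homeobox gene of enteric and autonomic neurons, had 3 counts against 546, 157-fold lower (interval 53.5 to 765). Of 11 crest and Schwann precursor genes, 8 were lower and 1 was higher, a higher call that was lost without E10.5 round 1, under DESeq2 or without the round term. Sox10, a factor of migrating crest and glia, was at 25.6 and 24.9 CPM in libraries labelled E11.5, against 59.2 and 52 CPM in libraries labelled E10.5. Foxd3, of the earliest crest, was at 7.87 and 7.28 against 8.93 and 8.24 CPM and did not pass.

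Macrophage genes showed the lowest median of any list, -4.33. Of 13 tested, 12 were lower in the libraries labelled E11.5 and none was higher. Csf1r, the receptor that macrophages need, was at 1.55 and 1.6 CPM in libraries labelled E11.5, against 13 and 11.1 CPM in libraries labelled E10.5 (log2 change -2.94 ± 0.16 SE, edgeR adjusted p = 1.4e-08). Cx3cr1, the fractalkine receptor, had 3 counts against 536 (154-fold lower, interval 52.6 to 751). The complement genes C1qa and C1qb were 99.4-fold and 117-fold lower, C1qc was at least 60.8-fold lower and Adgre1, the F4/80 antigen, at least 30-fold lower. Cd68, a lysosomal protein of many cells, did not pass, at 4.38 and 4.81 against 4.65 and 5.57 CPM. Apart from Cd68, no gene of the list passed 1.99 CPM in a library labelled E11.5. The few mast cell and granulocyte genes that could be tested, 4 of 9, were all lower, among them Mpo, the peroxidase of myeloid progenitors, at 0.473 and 0.243 against 4.89 and 4.88 CPM.

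Blood stem cell regulators did not move together. Of 17 transcription factors tested, 6 were lower and 1 was higher, with a median log2 change of -0.11. Of the 17, 7 had opposite signs in the rounds, and 4 were higher without E11.5 round 1. Runx1, required for blood cells to leave the aortic wall, was at 4.17 and 4.76 CPM in libraries labelled E11.5, against 6.81 and 4.42 CPM in libraries labelled E10.5, and did not pass (log2 change -0.32 ± 0.20, edgeR adjusted p = 0.21). Without E11.5 round 2 it passed as lower (adjusted p = 0.0063). Gata2 was lower, at 7.87 and 5.83 against 17 and 10.7 CPM. Mecom (Evi1), a stem cell factor also made in nephric tissue, was lower at 36.1 and 36.5 against 94.1 and 97.2 CPM. Spi1, the myeloid factor PU.1, was at 0.172 and 0.34 against 2.94 and 2.59 CPM; macrophage genes were lower in the same libraries. Lmo2 was the higher one, at 33.8 and 28.4 against 17.9 and 17.2 CPM.

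Surface genes of stem and progenitor cells were split as well, with 4 of 14 higher and 5 lower. Without E10.5 round 1 these were 2 and 3, and 3 were lower without the second-round one labelled E10.5 or the first-round one labelled E11.5. Kit, the stem cell factor receptor, was at 52.2 and 42.9 CPM in libraries labelled E11.5, against 40 and 36.4 CPM in libraries labelled E10.5, and its call was lost without E10.5 round 1 (edgeR adjusted p = 0.1) or without the round term (0.13). Ptprc, the pan-leukocyte antigen CD45, was at 0.258 and 1.5 CPM, against 4.4 and 5.11 CPM. The megakaryocyte list had 5 of 8 genes lower and none higher, all 8 lower without E11.5 round 2, and Pf4, platelet factor 4, was at 3.01 and 3.06 against 9.95 and 7.89 CPM.

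Red cell genes were near level between the ages. Of 16 regulators, membrane and haem genes tested, 1 was higher and 1 was lower, with a median log2 change of 0.02. Within round 1, 14 of the 16 lay lower in the library labelled E11.5, and within round 2, 15 lay higher. The calls turned with the library left out: 13 were higher without E11.5 round 1, 10 were lower without the second-round one, and 5 were higher without E10.5 round 1. Slc4a1, the band 3 anion exchanger, was at 344 and 352 CPM in libraries labelled E11.5, against 461 and 280 CPM in libraries labelled E10.5. Its log2 change was 0.41 without E11.5 round 1 and -0.50 without the second-round one, past the threshold each time. The lower member was Bcl11a, the silencer of embryonic globin genes, which neurons also make, at 1.2 and 1.21 against 31.4 and 29.3 CPM (log2 change -4.65 ± 0.12, edgeR adjusted p = 5e-11). The higher one was Tfrc, the transferrin receptor of all dividing cells.

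Embryonic globins showed no common direction either. Hbb-y was at 3430 and 4713 CPM in libraries labelled E11.5, against 6852 and 4995 CPM in libraries labelled E10.5, and did not pass. It passed as lower in limma-voom (adjusted p = 0.036), without E10.5 round 1 (edgeR adjusted p = 0.011), without E11.5 round 2 (5.3e-12), without a low-count filter and with the 4 compared libraries alone. Of the 4 embryonic globins, 1 was higher, 2 without E11.5 round 1 and none without E10.5 round 1, while 3 were lower without E11.5 round 2. The adult gene Hbb-bt was lower, at 3.65 and 3.3 against 35.5 and 28.3 CPM. Hbb-bs, its near-identical neighbour, was at 15.9 and 13.7 against 14.2 and 8.89 CPM and did not pass, and reads of the pair may have been divided between them in counting. Adult Hba-a1, with a near-identical copy in Hba-a2, was lower with an adjusted p of 0.021 in edgeR's test, a call lost without E10.5 round 2 (0.1), without the first-round one labelled E11.5 (0.39) and without the round term (0.18).

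**Figure D4:**
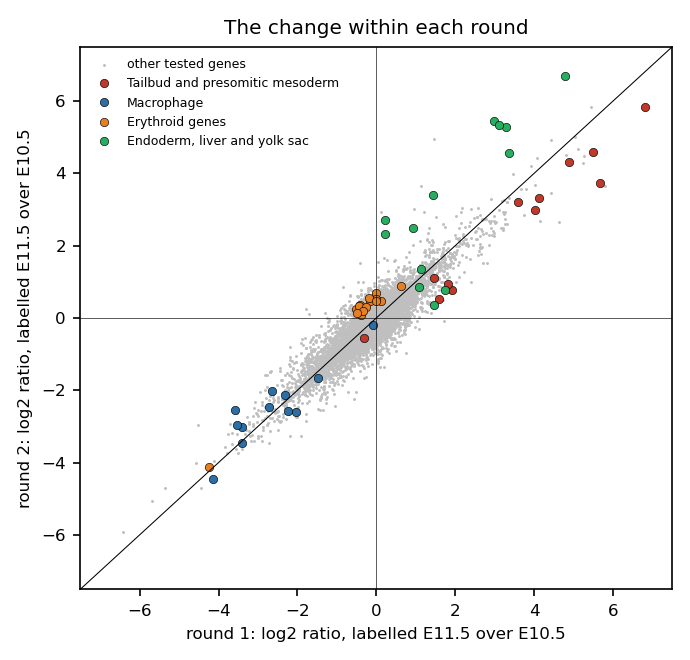
Log2 ratio (labelled E11.5 over labelled E10.5, pseudocount 0.5 CPM) within round 2 against the same within round 1, for tested genes with a mean of 1 CPM or more in either age, with members of 4 lists in colour. Tailbud and macrophage genes keep their sign in both rounds, and most erythroid genes change sign between rounds. The endoderm genes Afp, Ttr and Apob lie above the diagonal.

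Vessel genes changed little. Of 16 pan-endothelial genes tested, 5 were higher and 1 was lower, with a median log2 change of 0.17. Cdh5, the endothelial cadherin, was at 121 and 88.4 CPM in libraries labelled E11.5, against 99.8 and 79.3 CPM in libraries labelled E10.5 (log2 change 0.22 ± 0.06, edgeR adjusted p = 0.0058), where both ages were higher in round 1. That call was lost without the first-round library of either age (edgeR adjusted p = 0.17 for E10.5 and 0.11 for E11.5) and without the round term (0.41). In the list, 1 gene was higher without E10.5 round 1 or the round term, 3 without the first-round one labelled E11.5 and 8 without the second-round one labelled E11.5. Of 13 arterial genes, 4 were higher and 3 lower (30.8% and 23.1%), near the shares over all tested genes. Cxcr4, the receptor for the chemokine Cxcl12, was at 29.6 and 31.4 CPM, against 7.75 and 8.58 CPM (log2 change 1.90 ± 0.12), while Cxcl12 itself, made by perivascular mesenchyme, was at 151 and 146 CPM, against 663 and 601.5 CPM (log2 change -2.09 ± 0.06). Dll4, the arterial Notch ligand, did not pass, at 11.3 and 7.77 against 6.04 and 7.51 CPM, but passed as higher without the second-round library of either age (edgeR adjusted p = 0.0098 for E10.5 and 0.0076 for E11.5). Of 8 venous and lymphatic genes, 3 were higher and 2 lower, and Nr2f2, which other mesenchyme also makes, was among the lower at 138 and 121 against 242 and 194 CPM.

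By list median, genes of vessel wall cells differed more than genes of the vessel lining. Of 14 smooth muscle and pericyte genes tested, 12 were lower and none was higher (1 without E11.5 round 2), with a median log2 change of -1.38. Cspg4, the NG2 proteoglycan of pericytes, was at 1.03 and 0.825 CPM in libraries labelled E11.5, against 20.7 and 17 CPM in libraries labelled E10.5 (log2 change -4.35 ± 0.18 SE). Myh11, the myosin of mature smooth muscle, was at 0.43 and 0.583 CPM, against 5.63 and 3.81 CPM. Acta2, smooth muscle actin, which early heart and skeletal muscle also make, differed less, at 89.9 and 91.1 against 138 and 125 CPM. The difference between the 2 lists was not tested.

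Skeletal muscle genes were lower. Of 9 myogenic factors tested, 7 were lower and 1 was higher, and of 16 contractile genes 14 were lower and none was higher, with medians of -1.37 and -1.88. Myod1, a master factor of muscle, had 3 counts in the libraries labelled E11.5 against 306 in those labelled E10.5, 88.2-fold lower (interval 29.9 to 430). Myog, which starts muscle differentiation, was at 4.73 and 6.17 CPM, against 41.2 and 63 CPM (log2 change -3.25 ± 0.10), and Myh3, embryonic myosin, was at 6.28 and 7.33 CPM, against 76.7 and 103 CPM. Pax3, of uncommitted somite cells and of the dorsal neural tube, was the higher factor, at 48.8 and 57.5 against 23.4 and 35.8 CPM. Its call was lost without the round term (edgeR adjusted p = 0.14) and under DESeq2 (adjusted p = 0.081).

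Heart genes ran against the other muscle. All 7 that could be tested, of 9 listed, were higher in the libraries labelled E11.5. Myh6, atrial myosin, was at 41.7 and 13.2 CPM in libraries labelled E11.5, against 3.75 and 1.75 CPM in libraries labelled E10.5 (log2 change 3.25 ± 0.38, edgeR adjusted p = 1.8e-05). Myl7, the atrial light chain, was at 14.1 and 6.36 CPM, against 3.75 and 3.58 CPM, and Nppa, the atrial peptide, was at 0.086 CPM or less in all 4 libraries. The first-round library labelled E11.5 was the highest of the 4 in Myh6 and Myl7. In the list, 3 genes were higher without E10.5 round 1 and 4 without the round term.

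Sclerotome and skeletal genes were lower. Of 11 sclerotome and dermomyotome genes tested, 10 were lower and 1 was higher, with a median log2 change of -1.88. Pax1, which marks the cells that form vertebrae, was at 31.8 and 24.3 CPM in libraries labelled E11.5, against 124 and 110 CPM in libraries labelled E10.5 (log2 change -2.07 ± 0.07). Of 13 cartilage genes, 9 were lower and 2 higher, or 1 higher without either library labelled E10.5, without E11.5 round 2, under DESeq2 or without the round term. Acan, the aggrecan core protein, was at 0.516 and 0.631 CPM, against 7.67 and 6.87 CPM, and Col2a1, the main cartilage collagen, was at 262 and 227 CPM, against 782 and 597 CPM. Matn1, a later cartilage gene, was at 0.258 CPM or less in all 4.

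Connective tissue genes followed. Of 14 collagens 12 were lower and 2 higher, and of 18 other matrix genes tested 12 were lower and 3 higher. Col3a1, a fibrillar collagen of soft tissue, had 1 of the 5 largest losses in CPM, at 406 and 448 CPM in libraries labelled E11.5, against 1142 and 972 CPM in libraries labelled E10.5. Col1a1, the main fibrillar collagen of bone and skin, was an exception, at 483 and 456 against 403 and 272 CPM, but its call was lost without the second-round library of either age (edgeR adjusted p = 0.14 for E10.5 and 0.23 for E11.5) and without the round term (0.29). Postn, periostin, was another, at 157 and 226 against 59.1 and 75.4 CPM. Fibin, a secreted protein described in the fin bud of zebrafish, was among the 10 largest falls, at 0.989 and 0.728 against 32.1 and 31.4 CPM.

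Hox genes, which give each level of the trunk its identity in the order of their numbers, did not move together. Of 15 genes of groups 1 to 5, 7 were higher and 4 lower, with Hoxb1 and Hoxd1 higher by 2.56 and 1.96 on the log2 scale. Without E10.5 round 1, or without the round term, 2 of the 15 were lower. Of 12 genes of groups 6 to 9, 4 were higher and 2 lower, but 6 had opposite signs in the rounds, and 1 was lower without the round term or without either library labelled E10.5 or E11.5 round 2. Hoxb9, of these, was called higher. It was at 229 and 209 CPM in libraries labelled E11.5, against 85 and 86.8 CPM in libraries labelled E10.5. All 9 genes of groups 10 to 13 that could be tested, of 12, were lower, with a median log2 change of -1.54. Hoxd13, the last gene of its cluster, was at 2.75 and 0.728 CPM, against 14.3 and 11.2 CPM, and Hoxd12 had 2 counts against 264, 114-fold lower (interval 31.3 to 947). The second-round library labelled E11.5 was the lowest of the 4 in Hoxd13. Neighbouring Hox genes overlap in places, and the sources used here do not state whether counting used strand.

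Limb bud genes were mixed, with 2 of 13 higher and 6 lower. Prrx1, of limb and trunk mesenchyme, was at 78.2 and 76.4 CPM in libraries labelled E11.5, against 216 and 198 CPM in libraries labelled E10.5. Tbx5, of the forelimb, did not pass, at 13.3 and 10.3 against 13.7 and 6.67 CPM. Pitx1, of the hindlimb, was higher at 38.3 and 28.1 against 17.7 and 12.8 CPM, with a log2 change of 1.13, or 0.77 without E10.5 round 2. Its call was lost without E10.5 round 2, under DESeq2 (adjusted p = 0.175) and without the round term (edgeR adjusted p = 0.052). Tbx5 passed as higher without E10.5 round 1 (0.0012).

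Endoderm, liver and yolk sac genes were higher in the libraries labelled E11.5, and unevenly so. All 13 that could be tested, of 15, were higher, with a median log2 change of 3.76. Afp, alpha-fetoprotein of yolk sac and fetal liver, was at 16.6 and 110 CPM in libraries labelled E11.5, against 0.122 and 0.572 CPM in libraries labelled E10.5 (log2 change 7.42 ± 0.43, edgeR adjusted p = 3.3e-08). Ttr, transthyretin, was at 4.13 and 24.7 CPM, against 0.0816 and 0.0763 CPM, and Apob, an apolipoprotein of both tissues, was at 21.2 and 111 CPM, against 2 and 2.25 CPM. In these secreted-protein genes the second-round library labelled E11.5 held several times the level of the first-round one, though both lay above both libraries labelled E10.5. The uptake receptor Cubn, made in yolk sac and kidney tubule, showed this too, at 6.02 and 60.9 against 1.88 and 1.49 CPM. Its call was lost without E10.5 round 2 (edgeR adjusted p = 0.053), and its log2 change ran from 1.80 to 5.22 with 1 library left out. Summed over the list, levels were 93.1 and 348 CPM against 16.2 and 20.1 CPM. Alb was at or near 0 in all 4, and the part of yolk sac or liver tissue in these values was not tested. Foxa2, a factor of gut endoderm, floor plate and notochord, was alike in the rounds, at 12.1 and 11.1 against 5.42 and 5.87 CPM.

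Epithelial genes were higher more evenly. Of 14 genes of simple and surface epithelium tested, 13 were higher and none lower, with a median log2 change of 1.45. Krt8, a keratin of simple epithelia, was at 120 and 113 CPM in libraries labelled E11.5, against 24.4 and 27.6 CPM in libraries labelled E10.5 (log2 change 2.16 ± 0.09). Trp63, the factor of surface ectoderm, was at 10 and 14.9 CPM, against 3.14 and 4.46 CPM. The keratins of stratified skin, Krt5 and Krt14, were at 6.21 CPM or less throughout. Podxl, a sialomucin of many epithelia, of vessels and of early progenitors, was at 399 and 385 CPM, against 122 and 116 CPM.

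Signalling genes split by member. Of 17 FGF ligands, receptors and targets tested, 8 were higher and 4 lower. Without the round term these were 4 and 1, without E10.5 round 2 they were 5 and 2, and 1 was lower without E10.5 round 1 or the second-round one labelled E11.5. Fgf15, a ligand of the neural tube, was at 25.2 and 24.1 CPM in libraries labelled E11.5, against 0.285 and 0.267 CPM in libraries labelled E10.5 (log2 change 6.45 ± 0.21), and Fgf8, of the tailbud, was at 9.84 and 6.36 CPM, against 2.45 and 3.09 CPM. Of 14 retinoic acid genes, 6 were higher and 6 lower. The 3 enzymes that break retinoic acid down, Cyp26a1, Cyp26b1 and Cyp26c1, were higher, and so were the binding proteins Crabp1 (310 and 417 against 111 and 118 CPM) and Crabp2. Aldh1a2, the main embryonic synthetic enzyme, did not pass, at 124 and 116 against 135 and 124 CPM, and Aldh1a1 and Aldh1a3 were lower.

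Of 15 BMP and GDF genes, 4 were higher (2 without E10.5 round 2) and 6 lower, and Bmper, a BMP-binding protein of endothelium and nephric tissue, was at 3.7 and 3.06 CPM in libraries labelled E11.5, against 26.5 and 23.5 CPM in libraries labelled E10.5. Of 12 Hedgehog genes, 3 were higher and 3 lower, all by less than 1 on the log2 scale except Ihh (1.74). That is 25% each way, near the shares over all tested genes. The floor plate and notochord ligand Shh was lower, at 20.7 and 16.3 against 25.9 and 31 CPM (edgeR adjusted p = 0.076 without E10.5 round 2), and its target Ptch1 was higher, at 348 and 294 against 260 and 240 CPM. Of 16 axon guidance genes, 6 were higher and 8 lower.

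Imprinted growth genes leaned one way. Of 13 tested, 9 were lower and none was higher in the libraries labelled E11.5, with a median log2 change of -0.58. Peg3, a paternally expressed zinc finger gene, was at 1354 and 1285 CPM in libraries labelled E11.5, against 2999 and 3063 CPM in libraries labelled E10.5 (log2 change -1.20 ± 0.06). H19, a maternally expressed long RNA, was at 3740 and 3807 CPM, against 5186 and 6168 CPM, and Mest was at 1451 and 1366 against 2029 and 1854 CPM. These 3, with Col3a1 and Cxcl12, had the largest losses in CPM. Dlk1, a Notch-related growth regulator, was at 279 and 238 against 658 and 549 CPM.

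Germ cell genes were scarce. Of 12 tested, 4 were higher and 3 lower, and the higher ones (Kit, Prdm1, Tfap2c and Sox2) are made by other tissues too. Dazl was at 0.191 CPM or less in all 4 libraries. Nanos3, a germ cell RNA-binding protein, was at 0.172 and 0.0971 CPM in libraries labelled E11.5, against 0.734 and 0.953 CPM in libraries labelled E10.5.

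Immediate early genes, which respond within minutes to growth signals and to handling of tissue, were lower. Of 12 tested, 9 were lower and none was higher, with a median log2 change of -1.37. Fos was at 13.2 and 10.7 CPM in libraries labelled E11.5, against 110 and 82.5 CPM in libraries labelled E10.5 (log2 change -3.0 ± 0.09, edgeR adjusted p = 1.3e-10). Egr1 was at 13.1 and 12.3 CPM, against 110 and 79.9 CPM. These genes moved with the groups beside every other list, and the part of dissection or handling in the changes was not tested. Mitochondrially encoded genes took 1.69% and 2.06% of counts in the libraries labelled E11.5, against 1.7% and 2.39% in those labelled E10.5.

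Sex chromosome genes set 1 library apart. Xist, made from the inactive X chromosome, was at 457 and 613 CPM in libraries labelled E11.5, against 0.612 and 1019 CPM in libraries labelled E10.5. The Y-linked gene Ddx3y was at 38.7 and 30 CPM, against 78 and 29.1 CPM. The first-round library labelled E10.5 held practically no Xist and the most Ddx3y, and the other 3 held both. Its part in other changes was not tested, but without that library 3024 genes were higher and 3404 were lower, and 6200 of the 8491 genes passed again with the same sign.

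**Figure D5:**
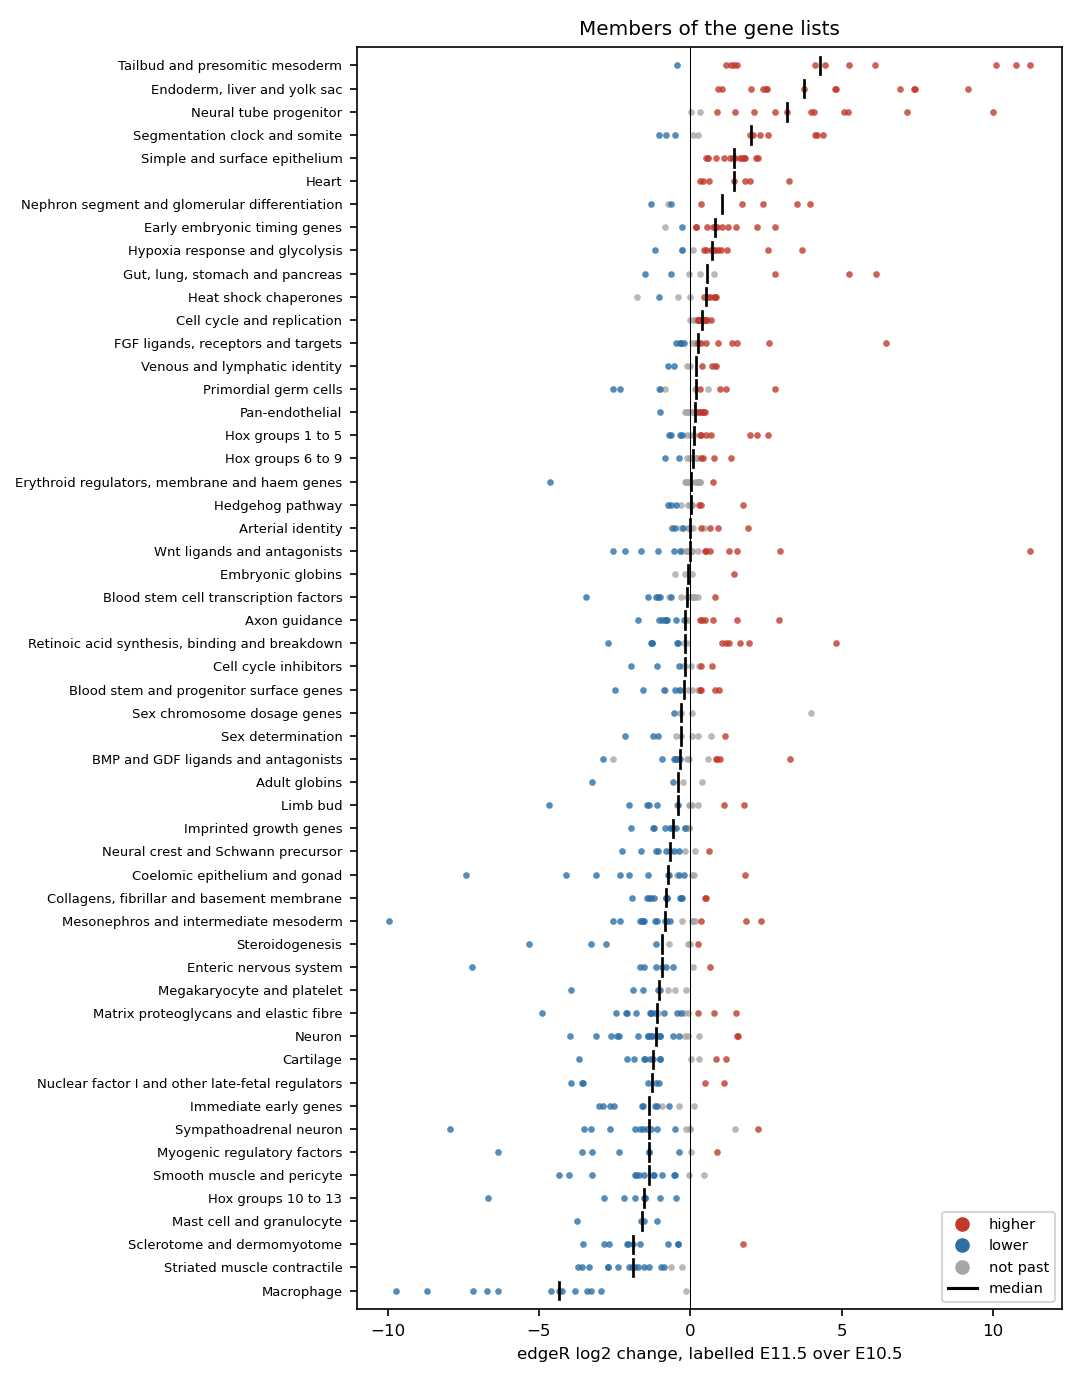
Fitted log2 change (labelled E11.5 over labelled E10.5) of the tested members of each gene list with 4 or more tested members, coloured by call, with the list median as a bar and lists ordered by it. Tailbud, endoderm and neural tube progenitor lists have the highest medians and macrophage, striated muscle and sclerotome lists the lowest; values of genes with almost no counts in an age are not bounds.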

How the data were processed

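Gene expression in dissected mouse embryo tissue was measured by polyA RNA-seq. The authors deposited a table of raw read counts, with 53465 genes and 14 libraries, of which the 6 AGM libraries were used. Per the submitters' processing notes, the genome was GRCm38/mm10 and the tools were STAR 2.5.0a, Trimmomatic 0.36, DESeq2 1.20.0 and featureCounts 1.6.0, with roles and settings not given in the sources used. Columns were matched to samples by name. The second-round AGM columns carry numbers without ages, and were matched by the numbers that the first-round labels tie to each age, which is an assumption. Total counts in the 6 libraries were 21527400 to 29534551.

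Counts of the 6 AGM libraries were fitted in edgeR 4.0.16 (R 4.3.3; glmQLFit and glmQLFTest), after filterByExpr by age and TMM scaling, with age and sequencing round as terms and 2 residual degrees of freedom. Benjamini-Hochberg adjustment ran over all 17613 tested genes, with calls under 0.05. The common dispersion was 0.00333, a coefficient of variation of 5.77%. Replicate numbers mark a shared round: deviations of same-numbered libraries correlated at r = 0.427 to 0.625 over 14559 genes. The edgeR fit was tested on simulated data. CPM values are counts over the TMM-scaled library size. Where an age had 0 counts, a fold is a bound set by 3 counts over the group, and with 1 to 3 counts a ratio with a 95% exact counting interval is given. Motifs were searched in RefSeq promoters with a script.

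The members, the 54 gene lists (665 genes, of which 663 are in the table) and the tests were chosen with earlier results of these data known. Named genes are the 10 largest rises and 10 largest falls in log2 change, and the 5 largest gains and losses in CPM, among called genes averaging at least 5 CPM in the higher age, with no overlap between the ages and a symbol that is not a predicted-gene name, together with list members. Alternatives were no round term, other size factors, DESeq2 1.42.0, limma-voom with limma 3.58.1, other low-count filters, other sets of libraries, globin and mitochondrially encoded genes left out, glmTreat against a log2 change of 1, and leaving out each library in turn.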

Additional observations from a re-analysis of the deposited data

How the results depend on the processing

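The counts of 4261 higher and 4230 lower genes stayed within 1.5 times under other size factors, DESeq2, limma-voom, both other low-count filters, the 4 compared libraries alone, and with globin and mitochondrially encoded genes left out. No replicate block, that is no round term, gave 2075 higher and 2716 lower, and all of these 4791 genes were called the same way with it. Under DESeq2, 10 genes followed across settings lost their call, with DESeq2 adjusted p from 0.065 to 0.385. They were Car9, Col1a1, Ddx3y, Gata4, Hba-a1, Krt14, Pax3, Pitx1, Prdm13 and Wnt1, and Xist gained a call. The fit of all 14 libraries gave 21 and 29, with a common dispersion of 0.0923, and glmTreat against a log2 change of 1 gave 378 and 784, a share of 32.5% higher. Leaving out 1 library at a time gave 2561 to 3991 higher and 2765 to 3793 lower. None of the 8491 calls had the opposite sign under any other setting, except 1 without the first-round library labelled E10.5 and 2 without the second-round library labelled E11.5. Among genes named, log2 changes with 1 library left out ran from -0.981 to 0.00678 in Ddx3y, from -0.833 to 0.428 in Hba-a2, from -0.505 to 0.408 in Slc4a1 and from -0.738 to 9.71 in Xist; the cause was not tested. A fit with 1 library in an age assumes that it varies like the others. With 2 libraries an age and 2 residual degrees of freedom, small changes rest on an estimate of spread shared over genes. In the fit of only the 4 compared libraries 1 degree of freedom was left. Genes at a few counts have wide intervals, and the ages of the second-round libraries rest on sample numbers.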

Other observations

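Gene Ontology terms in the deposited table, read as 747 entries with 40 to 400 tested genes, described further groups, with no test of any entry. Names that hold a slash were cut at it, so some entries are only part of a term's name. Genes for making ribosomes were mostly higher in the libraries labelled E11.5. Of 89 genes of ribosome biogenesis 79 were higher and none was lower, with a median log2 change of 0.46. Of 60 proteins of the cytosolic large ribosomal subunit 51 were higher, and of 42 of the small subunit 36 were higher and 1 was lower. Of 63 nuclear pore genes 50 were higher, and of 99 genes of mRNA splicing by the spliceosome 73 were higher. These shares stand beside 24.2% of all tested genes. On the other side, of 125 genes of homophilic cell adhesion 79 were lower, of 71 genes of the collagen trimer 49, of 56 genes of synapse assembly 34 and of 42 genes of ureteric bud development 24, beside 24% of all tested genes.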
